A study of Mus musculus with 16 samples.

Results

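The autophagy machinery described here is a set of 34 mouse genes named for this description. It covers the proteins that start, build and load autophagosomes, together with cargo receptors and the transcription factors TFEB and TFE3. The 34 genes and the further gene lists below were chosen with earlier results of these data known. Their shares beside those of all tested genes therefore describe these lists and are no test of autophagy genes. All 34 were found by symbol among the 46078 gene identifiers of the deposited count table, and all 34 were among the 12910 genes with enough counts to be tested. The table held liver messenger RNA from 16 obese C57BL/6 mice aged 22 weeks with fatty livers, in 4 groups of 4 libraries. The Dicretin group received a co-agonist that activates both the glucagon-like peptide-1 receptor and the glucagon receptor. The Semaglutide group received an agonist of the glucagon-like peptide-1 receptor. The calorie-restricted group was brought to an equivalent weight loss by eating less, per the series' design, and the saline group was the vehicle control. All groups shared the strain, the age, the diet-induced obesity and the hepatic steatosis, and the labels name no altered allele. Doses and treatment times are not given in the sources used here, so the drugs are set side by side without knowing whether their doses match.

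Macroautophagy encloses portions of cytoplasm, organelles or stored material in a double membrane, the autophagosome, which then fuses with a lysosome. A kinase complex built on ULK1 starts the process, a lipid kinase complex built on Beclin 1 marks the site, and ubiquitin-like conjugation attaches ATG8 proteins (the LC3 and GABARAP families) to the growing membrane, where they hold cargo receptors such as p62. In the liver, autophagy supplies amino acids, glucose and fatty acids during fasting, and glucagon is a classical inducer of it in rat liver. The abundance of a messenger RNA does not measure the flow of material through the pathway, and no such flow was measured here.

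Levels are given as CPM, the counts of a gene scaled to a common library total, and comparisons between genes as CPM per kilobase of exon. Values of single libraries always follow the order Dicretin 14, 23, 64 and 65, Semaglutide 11, 15, 31 and 51, calorie restricted 7, 8, 52 and 79, and saline 35, 50, 73 and 78, by the numbers the submitters gave. Means carry the SD over 4 libraries, log2 fold changes carry their SE, and each adjusted p is that of the quasi-likelihood test in edgeR, corrected by the Benjamini-Hochberg method over all genes tested. A gene is called changed at an adjusted p under 0.05. Library totals ranged from 12.144 to 18.755 M counts. Each library number belongs to 1 sample. Each p-value sets a difference between groups against the spread between samples, which was estimated from all 4 groups together.

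Hepatocyte markers were present in every library, with 6 of 6 detected in each group. Some libraries stood apart. In Semaglutide 11, transcripts in the shortest 20% of exon lengths (up to 2369 bases) stood 0.85 higher in median log2 deviation than those in the longest 20%, while Dicretin 14 showed the opposite difference of -0.53. Skeletal muscle markers summed to 307 CPM in Semaglutide 15 and pancreas markers to 461 CPM in Dicretin 64. Without Semaglutide 11 and Dicretin 14 together, the number of the 34 genes called was 21 between Dicretin and saline (42.4% of all tested genes were called there in either direction), 1 between Semaglutide and saline (5.02%), 6 between calorie restriction and saline (14.4%), 20 between Dicretin and calorie restriction (40.3%), 5 between Semaglutide and calorie restriction (6.41%) and 18 between Dicretin and Semaglutide (34.9%). With all libraries, described below, these counts were 21, 0, 4, 16, 4 and 13, and the shares of all tested genes were 36.7%, 4.18%, 7.53%, 31.3%, 6.12% and 32%. In whole liver, fewer cells of a type and less RNA per cell cannot be told apart.

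Dicretin livers differed from saline livers in 21 of the 34 genes, in both directions. Of these, 13 genes were higher (38.2%, against 17.5% of all tested genes called higher) and 8 were lower (23.5%, against 19.2% of all tested genes called lower). The median log2 fold change was 0.08 over the 34 genes and -0.01 over all tested genes. The genes that rose included the p62 receptor gene Sqstm1, the LC3 genes Map1lc3a and Map1lc3b, the initiation scaffold Rb1cc1, the ATG4 protease genes Atg4b, Atg4c and Atg4d, and Tfe3. Those that fell were Ulk2, Atg101, Pik3r4, Atg14, Wipi1, Atg7, Nbr1 and Optn. Initiation, nucleation, conjugation and receptor genes each held members that rose and members that fell. ATG8 and transcription factor genes held members that rose and none that fell, and the membrane genes held 1 that fell and none that rose. Markers of some cell types moved in the same comparison. Of 8 stellate and fibroblast markers 2 were called lower and none higher, with a median log2 fold change of -0.90 and sums of 217 to 259 CPM in Dicretin livers and 225 to 383 CPM in saline livers. Of 6 hepatocyte markers 3 were higher and 1 lower, with sums of 75600 to 94500 CPM in Dicretin livers and 92300 to 113000 CPM in saline livers. None of 9 Kupffer cell markers was called. No marker of these 3 lists was at 0 in all libraries of a group, and their part in the result was not tested.

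**Figure D1:**
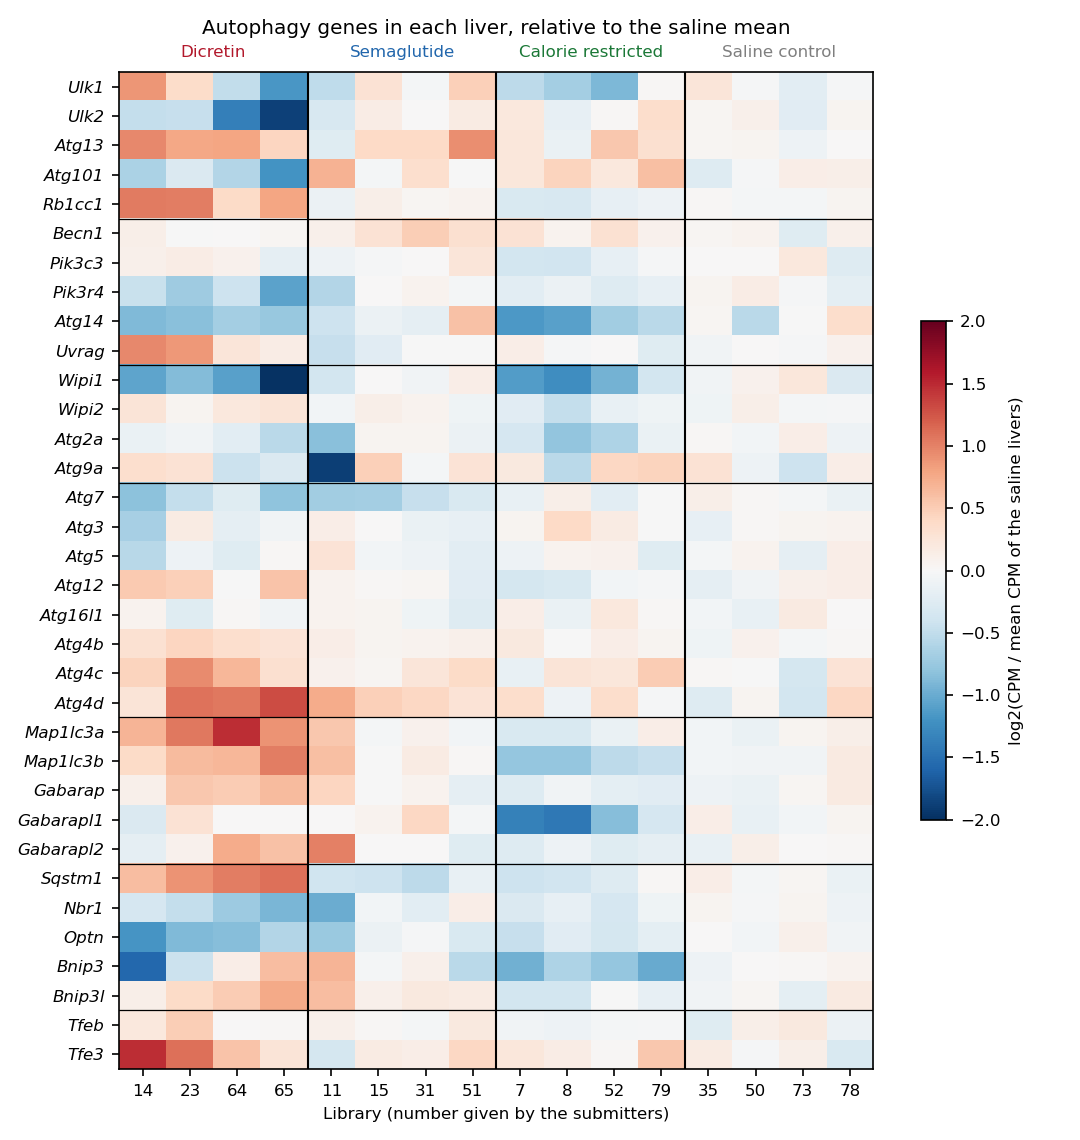
Each row is 1 of the 34 genes, ordered by role, and each column 1 liver, with the group named above the columns. Colour gives log2 of the CPM over the mean CPM of the 4 saline livers, from blue (lower) to red (higher). The 4 Dicretin columns differ most from saline, with Sqstm1 between 575 and 808 CPM against 342 to 411 CPM in saline, and the calorie-restricted columns are blue at Gabarapl1, Wipi1, Atg14 and Map1lc3b.

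The initiation complex consists of the kinases ULK1 and ULK2 and the adaptors ATG13, ATG101 and FIP200 (Rb1cc1). In Dicretin livers 2 of its 5 genes rose (Rb1cc1 and Atg13), 2 fell (Ulk2 and Atg101) and Ulk1 was not called. Rb1cc1, the scaffold of the complex (chr1:6206197-6276648, plus strand, GRCm38), had 96.04, 95.2, 61.2 and 81.3 CPM in Dicretin livers, 43.3, 51.02, 48.3 and 48.96 CPM in Semaglutide livers and 38.02, 37.4, 41.7 and 43.5 CPM in calorie-restricted livers, against 47.7, 45.5, 45.6 and 48.7 CPM in saline livers. All 4 Dicretin livers lay above the other 12, and the difference from saline was 0.83 ± 0.14 (adjusted p = 0.000112). Ulk2, which encodes the second ULK kinase (chr11:61775649-61855073, minus strand), had 39.1, 39.6, 21.1 and 14.98 CPM in Dicretin livers, 43.9, 60.3, 54.95 and 60.9 CPM in Semaglutide livers and 63.4, 48.8, 55.5 and 69.8 CPM in calorie-restricted livers, against 55.8, 58.7, 46.7 and 56.9 CPM in saline livers. The Dicretin livers all lay below the others, and within the group livers 64 and 65 lay far below livers 14 and 23. Its log2 fold change against saline was -0.92 ± 0.24 (adjusted p = 0.00511). Atg101, which stabilises ATG13 (chr15:101284272-101290945, plus strand), had 17.8, 22.7, 18.4 and 12.04 CPM in Dicretin livers, 44.6, 26.99, 34.8 and 27.6 CPM in Semaglutide livers and 32.5, 37.6, 31.8 and 42.1 CPM in calorie-restricted livers, against 23.1, 27.3, 30.1 and 29.9 CPM in saline livers. Every Dicretin liver lay below every other liver, with the closest pair at 22.7 CPM (Dicretin 23) and 23.15 CPM (saline 35), and Atg101 fell by 0.64 on the log2 scale against saline (adjusted p = 0.0152). Atg13 averaged 47.3 ± 6.90 CPM in Dicretin livers and 28.1 ± 1.37 CPM in saline livers, a log2 fold change of 0.75 ± 0.20 (adjusted p = 0.00602). Ulk1, the kinase that receives the signals of mTORC1 and AMPK, had 116, 81.7, 45.2 and 28.1 CPM in Dicretin livers, against 74.5, 62.1, 54.4 and 61.95 CPM in saline livers. The Dicretin livers thus lay on both sides of the saline livers, and the 95% interval of the log2 fold change reached from -0.57 to 0.78.

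Nucleation depends on the lipid kinase VPS34 (Pik3c3) with VPS15 (Pik3r4) and Beclin 1 (Becn1), which ATG14 directs to autophagosomes and UVRAG to endosomes. Of these 5 genes, Uvrag rose in Dicretin livers while Atg14 and Pik3r4 fell. Uvrag (chr7:98885021-99141141, minus strand) had 67.01, 62.7, 40.99 and 38.4 CPM in Dicretin livers, 25.1, 29.5, 34.1 and 34.4 CPM in Semaglutide livers and 37.7, 33.99, 34.6 and 29.3 CPM in calorie-restricted livers, against 32.8, 34.7, 34.02 and 36.6 CPM in saline livers. Dicretin livers 14 and 23 stood well above all others, and livers 64 and 65 lay just above the highest of the rest, 37.7 CPM in a calorie-restricted liver. The difference from saline was 0.60 ± 0.17 (adjusted p = 0.0106), called under every alternative. Uvrag belongs to the longest 20% by exon length, and its level fell from Dicretin liver 14 to 65. In that order the difference in median log2 deviation between the shortest and longest transcripts was -0.53, 0.03, 0.41 and 0.42. The part of this trend in the spread of Uvrag was not tested. Not all of the longest 20% fell in that order, as Map1lc3b rose from 168 to 261 CPM. Atg14 averaged 11.5 ± 0.735 CPM in Dicretin livers and 19.8 ± 4.78 CPM in saline livers (-0.78 ± 0.22, adjusted p = 0.00937). Pik3r4 averaged 12.3 ± 2.43 CPM in Dicretin livers and 19.2 ± 1.93 CPM in saline livers (-0.64 ± 0.17, adjusted p = 0.00624). The 2 catalytic and core genes were not called: Becn1 had a log2 fold change of 0.04 ± 0.12 (adjusted p = 0.817) and Pik3c3 one of 0.05 ± 0.14 (adjusted p = 0.82). The exons of Becn1 overlap those of Cntd1 on the opposite strand over 43.9% of their length, and those of Uvrag overlap an antisense gene over 17.6%. The strand setting of the counting is not given in the sources used here, so reads from such pairs cannot be told apart.

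The membrane is extended by the lipid transfer protein ATG2A, the scramblase ATG9A and the phosphoinositide readers WIPI1 and WIPI2. Wipi1 fell in Dicretin livers and the other 3 genes were not called. Wipi1 (chr11:109573331-109611967, minus strand) had 8.41, 9.51, 8.20 and 4.42 CPM in Dicretin livers, 13.6, 17.5, 16.6 and 19.03 CPM in Semaglutide livers and 8.06, 7.33, 9.003 and 13.6 CPM in calorie-restricted livers, against 16.6, 18.4, 20.4 and 14.2 CPM in saline livers. The Dicretin livers lay below all Semaglutide and saline livers. Dicretin livers 14, 23 and 64 lay among the calorie-restricted ones and liver 65 below them. The log2 fold change against saline was -1.18 ± 0.23 (adjusted p = 0.00053). Wipi2, the reader that recruits ATG16L1, averaged 77.6 ± 4.94 CPM in Dicretin livers and 67.6 ± 4.15 CPM in saline livers (0.20 ± 0.12, adjusted p = 0.189). Atg9a was at 4.43 CPM in Semaglutide 11 and between 15.8 and 22.7 CPM in the other Semaglutide livers, and 31.8% of its exon length is shared with a transcript on the same strand.

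The conjugation genes gave 4 increases and 1 decrease among 8 in Dicretin livers. The increases were Atg12, a ubiquitin-like protein, and the 3 tested ATG4 proteases, which cut ATG8 precursors and release ATG8 from membranes. The decrease was Atg7, the E1-like enzyme of both conjugation reactions. Atg4d (chr9:21265293-21277772, plus strand) had 23.6, 41.9, 40.8 and 48.6 CPM in Dicretin livers, 32.9, 27.5, 26.4 and 23.9 CPM in Semaglutide livers and 25.1, 18.4, 25.1 and 19.4 CPM in calorie-restricted livers, against 16.6, 20.6, 15.4 and 26.4 CPM in saline livers. Dicretin livers 23, 64 and 65 lay above all others, while liver 14 lay within the range of the saline livers. Its log2 fold change was 0.97 ± 0.21 (adjusted p = 0.00154), and 19.3% of its exon length overlaps Kri1 on the opposite strand. Atg4c differed by 0.61 ± 0.18 (adjusted p = 0.012), Atg4b by 0.34 ± 0.11 (adjusted p = 0.0233) and Atg12 by 0.41 ± 0.15 (adjusted p = 0.0357). Atg7 averaged 33.3 ± 6.60 CPM in Dicretin livers and 49.4 ± 3.71 CPM in saline livers, a log2 fold change of -0.57 ± 0.15 (adjusted p = 0.00552). The E2-like enzyme gene Atg3, the ATG12 acceptor Atg5 and its partner Atg16l1 were not called, with log2 fold changes of -0.15 for Atg3, -0.21 for Atg5 and -0.05 for Atg16l1. Atg4a, another ATG4 protease gene, had 0 to 1.45 CPM and too few counts to be tested. Atg12 was not called without Dicretin 14, 23 or 65 or saline 35 or 50 (adjusted p 0.0597 to 0.104), and Atg4b not without saline 35 (adjusted p = 0.0686). Neither was called with upper quartile factors, with no count filter or with only the 2 groups in the fit (adjusted p 0.0543 to 0.0811), and Atg12 was not called without Semaglutide 11 and Dicretin 14 together (adjusted p = 0.0507).

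The ATG8 genes encode the proteins that are coupled to the autophagosome membrane. In Dicretin livers 3 of the 5 rose, none fell, and the median log2 fold change of the 5 was 0.46. The 2 that were not called, Gabarapl1 and Gabarapl2, belong to the GABARAP branch. Map1lc3b, whose protein LC3B is the usual marker of autophagosomes (chr8:121590361-121598760, plus strand), had 168, 199, 203 and 261 CPM in Dicretin livers, 195, 128, 143 and 130.2 CPM in Semaglutide livers and 75.4, 75.6, 89.5 and 93.1 CPM in calorie-restricted livers, against 124, 122, 123 and 146 CPM in saline livers. The Dicretin livers lay above all saline livers and overlapped the Semaglutide group only through Semaglutide 11, and the calorie-restricted livers lay below every other liver. Against saline the log2 fold change was 0.69 ± 0.16 (adjusted p = 0.00246). Map1lc3a, which encodes LC3A (chr2:155276297-155278073, plus strand), had 68.3, 88.0, 119 and 79.7 CPM in Dicretin livers, 62.1, 41.6, 44.97 and 41.1 CPM in Semaglutide livers and 34.4, 34.5, 38.9 and 46.5 CPM in calorie-restricted livers, against 40.97, 38.96, 44.2 and 46.1 CPM in saline livers. All Dicretin livers lay above the other 12, with a difference from saline of 1.06 ± 0.17 (adjusted p = 0.000126). Gabarap (chr11:69991143-69994951, plus strand) had 287, 388, 378 and 414 CPM in Dicretin livers, 358, 266, 280.5 and 234 CPM in Semaglutide livers and 222, 253, 234 and 228 CPM in calorie-restricted livers, against 248, 243, 274 and 302 CPM in saline livers. Its Dicretin livers overlapped the other groups through liver 14 alone and differed from saline by 0.46 ± 0.15 (adjusted p = 0.0216). That call was lost without Dicretin 65, saline 35 or saline 50 (adjusted p 0.0553 to 0.0589).

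Gabarapl1 (chr6:129533160-129542346, plus strand) had 311, 467, 382 and 384 CPM in Dicretin livers, 383, 402, 510.3 and 372 CPM in Semaglutide livers and 149.8, 141, 212 and 302 CPM in calorie-restricted livers, against 417, 344, 368 and 396 CPM in saline livers. Calorie-restricted livers lay below all others, and livers 7 and 8 were the lowest, while Dicretin, Semaglutide and saline livers overlapped throughout. Dicretin and saline livers differed by 0.02 ± 0.20 (adjusted p = 0.956), with a 95% interval from -0.41 to 0.44. Gabarapl2 reached 129 CPM in Semaglutide 11, against 54.5 to 64.6 CPM in the other Semaglutide livers, and 57.8 to 69.3 CPM in saline livers. Per kilobase of exon, Gabarapl1 and Gabarap were the most abundant of the family in saline livers, at 189 ± 15.8 and 145 ± 14.7 CPM per kilobase. Map1lc3a followed at 36.1 ± 2.73, Gabarapl2 at 27.6 ± 2.04 and Map1lc3b at 17.1 ± 1.52 CPM per kilobase. The length used joins the exons of all annotated transcripts, 7517 bases for Map1lc3b and 1181 for Map1lc3a. The order of these genes, here and in Dicretin livers, depends on it. In CPM the order in saline livers was Map1lc3b (129 ± 11.4), Gabarapl2 (64.1 ± 4.74) and Map1lc3a (42.6 ± 3.22). In Dicretin livers Gabarap stood at 199 ± 30.05 and Gabarapl1 at 192 ± 31.8 CPM per kilobase, which do not differ beyond their spread, followed by Map1lc3a at 75.1 ± 18.3, Gabarapl2 at 35.2 ± 10.1 and Map1lc3b at 27.7 ± 5.20. In calorie-restricted livers Gabarapl1 fell to 99.8 ± 36.8 CPM per kilobase, with Gabarap at 127 ± 7.24. The exons of Gabarapl1 overlap 1700101I11Rik on the opposite strand over 28.3% of their length, and Map1lc3b and Gabarapl2 share stretches with processed pseudogenes, so part of their reads may have been assigned elsewhere.

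**Figure D2:**
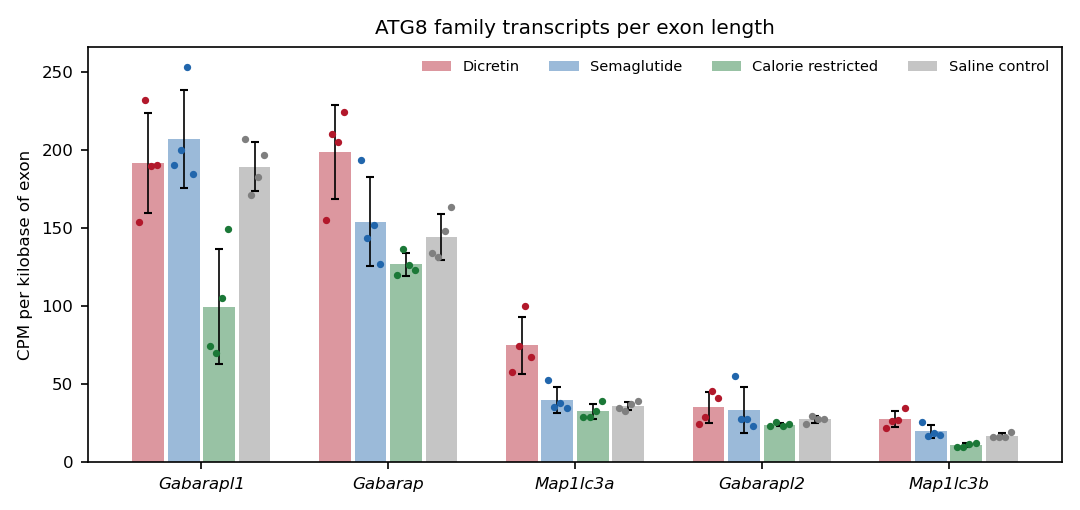
Bars give the mean level of each ATG8 gene per group in CPM per kilobase of exon, with SD whiskers and 4 points, 1 per liver. Gabarapl1 and Gabarap stand highest, Gabarapl1 is lowest in the calorie-restricted group (99.8 ± 36.8), and Map1lc3a is highest in the Dicretin group (75.1 ± 18.3).

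The promoter windows of the 2 ATG8 genes that changed under calorie restriction are shown because they belong to the same family, and of the pair Map1lc3b was called under Dicretin and Gabarapl1 was not. Each window runs from 250 bases before to 50 bases after a RefSeq transcript start (GRCm38.p6), on the strand of the gene. The Map1lc3b window lies at chr8:121590188-121590487 on the plus strand and the Gabarapl1 window at chr6:129532942-129533241 on the plus strand. Capitals mark matches to the searched motifs, which are listed with the promoter results.
Map1lc3b: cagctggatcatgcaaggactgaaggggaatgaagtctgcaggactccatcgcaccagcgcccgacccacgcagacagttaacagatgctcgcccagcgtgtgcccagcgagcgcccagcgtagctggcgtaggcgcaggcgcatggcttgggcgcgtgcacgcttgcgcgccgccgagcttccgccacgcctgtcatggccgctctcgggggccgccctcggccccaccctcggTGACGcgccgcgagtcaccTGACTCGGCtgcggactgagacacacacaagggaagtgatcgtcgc
Gabarapl1: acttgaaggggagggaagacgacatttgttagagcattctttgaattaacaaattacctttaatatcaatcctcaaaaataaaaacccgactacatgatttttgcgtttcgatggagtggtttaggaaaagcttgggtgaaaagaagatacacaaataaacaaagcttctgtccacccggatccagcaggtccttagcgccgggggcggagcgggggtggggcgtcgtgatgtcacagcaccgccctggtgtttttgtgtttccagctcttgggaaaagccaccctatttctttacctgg
The Map1lc3b window has a GC content of 68% with 34 CpG dinucleotides, and the Gabarapl1 window one of 46.3% with 12.

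Cargo receptors tie selected material to ATG8 proteins. Sqstm1, the gene of p62, had the smallest p-value of the 34 genes, and it rose in Dicretin livers together with the mitophagy receptor gene Bnip3l, while Nbr1 and Optn fell and Bnip3 was not called. Sqstm1 (chr11:50199366-50210827, minus strand) had 575, 698, 763 and 808 CPM in Dicretin livers, 285, 283, 261 and 338 CPM in Semaglutide livers and 281, 288, 316 and 381 CPM in calorie-restricted livers, against 411, 365, 385 and 342 CPM in saline livers. The Dicretin livers all lay above every other liver, and the highest of the other 12 was saline liver 35 at 411 CPM. The level per kilobase of exon was 212 ± 30.2 CPM in Dicretin livers and 112 ± 8.81 CPM in saline livers. The log2 fold change against saline was 0.92 ± 0.14 (adjusted p = 8.05e-05), with a 95% interval from 0.62 to 1.22, and the call held under every alternative tried. Part of the exon length, 17.3%, overlaps Mrnip on the opposite strand. The Sqstm1 promoter window, at chr11:50210771-50211070 on the minus strand, is printed for the gene with the smallest p-value. It has no match to the searched motifs and therefore no capitals.
Sqstm1: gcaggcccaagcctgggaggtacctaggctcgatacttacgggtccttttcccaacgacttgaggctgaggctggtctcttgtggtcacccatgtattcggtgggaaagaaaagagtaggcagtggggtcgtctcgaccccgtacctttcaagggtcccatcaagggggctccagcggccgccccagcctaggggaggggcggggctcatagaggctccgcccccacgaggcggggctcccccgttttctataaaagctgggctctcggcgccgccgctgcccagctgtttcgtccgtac
Its GC content is 63.3% with 20 CpG dinucleotides.

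Optn, the gene of optineurin, which binds ubiquitinated mitochondria and bacteria (chr2:5020642-5064051, minus strand), had 46.8, 57.1, 58.5 and 70.7 CPM in Dicretin livers, 63.3, 97.7, 104 and 85.4 CPM in Semaglutide livers and 76.5, 90.4, 82.5 and 92.4 CPM in calorie-restricted livers, against 106, 102, 114 and 100 CPM in saline livers. Dicretin livers were lowest, overlapping the rest only through Semaglutide 11 at 63.3 CPM, and the difference from saline was -0.86 ± 0.15 (adjusted p = 0.000285). Bnip3l, also called NIX (chr14:66985239-67008877, minus strand), had 95.5, 116, 126 and 149 CPM in Dicretin livers, 136, 94.99, 101 and 98.9 CPM in Semaglutide livers and 68.5, 68.8, 88.4 and 78.6 CPM in calorie-restricted livers, against 84.5, 91.2, 77.4 and 101 CPM in saline livers. Dicretin liver 14 lay within the saline range and the other 3 above it, and the log2 fold change was 0.46 ± 0.16 (adjusted p = 0.0275). Nbr1, a p62 partner, averaged 129 ± 22.8 CPM in Dicretin livers and 195 ± 9.82 CPM in saline livers (-0.60 ± 0.19, adjusted p = 0.0182). Bnip3 had 152, 334, 496 and 691 CPM in Dicretin livers, against 419, 455, 460.2 and 473 CPM in saline livers. The Dicretin livers spread more widely than the saline livers and lay on both sides of them, lowest to highest in the order of livers 14, 23, 64 and 65. The difference in median log2 deviation between the shortest and longest transcripts was -0.53, 0.03, 0.41 and 0.42 in these livers. Bnip3 belongs to the shortest 20%, and the part of this trend in its spread was not tested. Not all of the shortest 20% rose in that order, as Atg101 was lowest in Dicretin liver 65 (12.04 CPM). An antisense gene on the opposite strand overlaps 22.3% of the exon length of Bnip3, and Bnip3, Bnip3l and Rb1cc1 share stretches with pseudogenes, so their levels are uncertain. Without Dicretin 64 or 65 or saline 35 or 73, Bnip3l was not called (adjusted p 0.0549 to 0.0946), nor with upper quartile factors (adjusted p = 0.0582), and without Dicretin 65 neither was Nbr1 (adjusted p = 0.0575).

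TFEB and TFE3 are related transcription factors that enter the nucleus on starvation and bind promoters of lysosomal and autophagy genes. Tfe3 (chrX:7762560-7775202, plus strand) had 43.7, 33.7, 23.2 and 18.7 CPM in Dicretin livers, 12.3, 17.5, 17.1 and 20.97 CPM in Semaglutide livers and 18.3, 17.3, 15.96 and 22.7 CPM in calorie-restricted livers, against 17.6, 15.4, 16.9 and 12.7 CPM in saline livers. Dicretin livers 14, 23 and 64 were the highest of all, and liver 65 lay above all saline livers but below the highest Semaglutide and calorie-restricted livers. Its log2 fold change against saline was 0.93 ± 0.23 (adjusted p = 0.00375), called under every alternative. Tfe3 belongs to the longest 20% by exon length, and its level fell from Dicretin liver 14 to 65. In that order the difference in median log2 deviation between the shortest and longest transcripts was -0.53, 0.03, 0.41 and 0.42. The part of this trend in the spread of Tfe3 was not tested, and Map1lc3b, also among the longest 20%, rose in that order. Tfeb averaged 10.3 ± 1.66 CPM in Dicretin livers and 8.99 ± 1.25 CPM in saline livers (0.20 ± 0.16, adjusted p = 0.338), with a 95% interval from -0.13 to 0.53. Both were the least abundant of the 34 transcripts per exon length in saline livers, at 1.69 ± 0.233 CPM per kilobase for Tfe3 and 1.59 ± 0.220 for Tfeb.

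**Figure D3:**
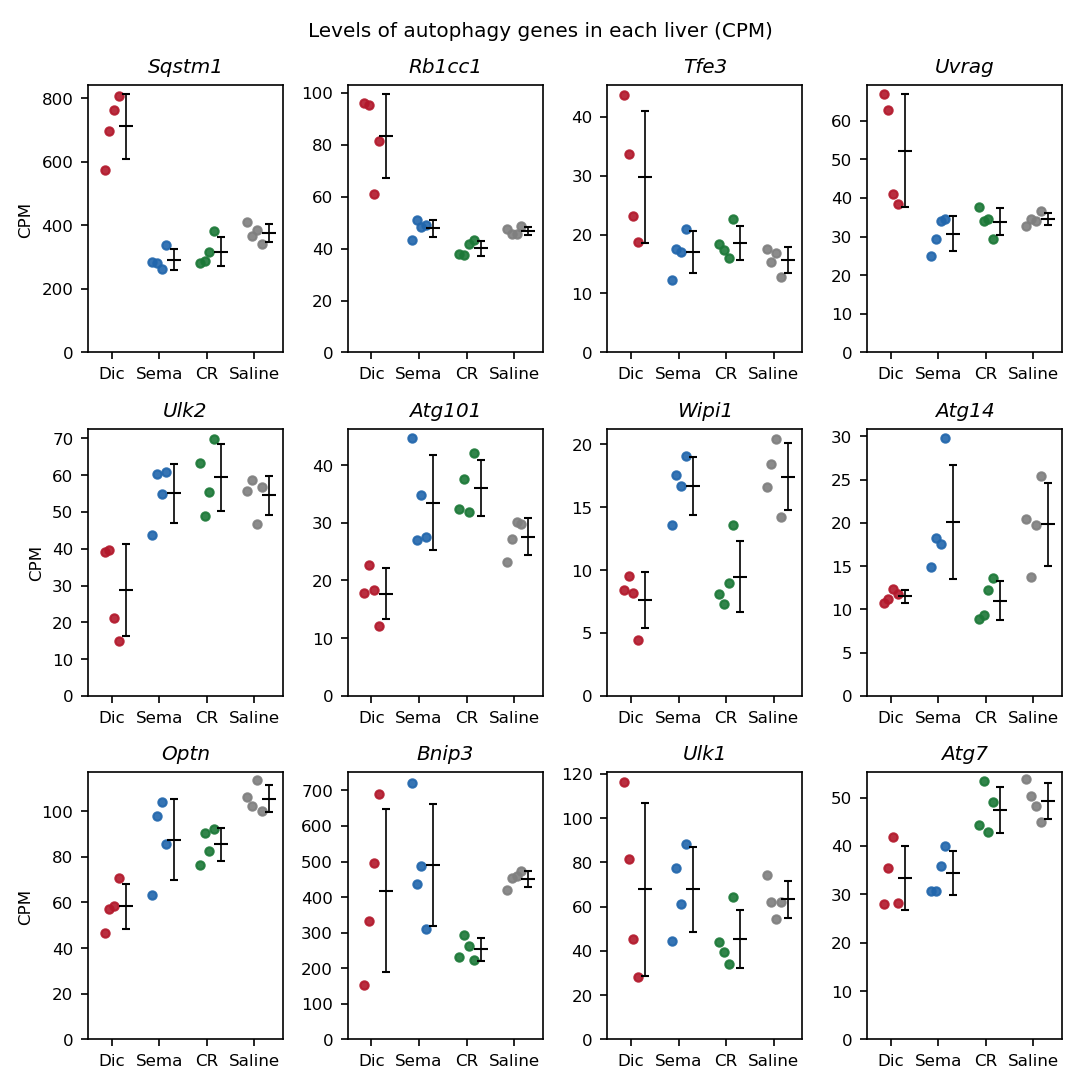
Each panel shows 1 gene, with CPM on the y axis from 0 and 1 point per liver in the Dicretin (Dic), Semaglutide (Sema), calorie-restricted (CR) and saline groups; black bars give mean ± SD. Sqstm1 and Rb1cc1 are higher in all 4 Dicretin livers than in any other liver, Ulk2 and Atg101 are lower in all 4, and Bnip3 and Ulk1 spread widely within the Dicretin group.

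None of the 34 genes was called between Semaglutide and saline livers by edgeR. No gene was called higher (1.56% of all tested genes were) and none lower (2.62% of all tested genes were), and 5 of the 34 had an unadjusted p under 0.05. Atg7 came closest, with 34.4 ± 4.55 CPM in Semaglutide livers and 49.4 ± 3.71 CPM in saline livers, a log2 fold change of -0.52 ± 0.15 (adjusted p = 0.0505). DESeq2 and limma-voom each called 1 gene, which was Atg7. Sqstm1 averaged 292 ± 32.5 CPM in Semaglutide livers and 376 ± 29.6 CPM in saline livers, a log2 fold change of -0.37 with a 95% interval from -0.67 to -0.06 and an adjusted p of 0.165. For Map1lc3b the log2 fold change was 0.21 ± 0.16 (adjusted p = 0.501). Leaving out Semaglutide 51, or Dicretin 14, 64 or 65, which share the fitted spread, each gave 1 call, Atg7.

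Calorie-restricted livers had 4 genes below saline livers and none above. The 4 lower genes were 11.8% of the 34, against 4.11% of all tested genes called lower, and 3.42% of all tested genes were called higher. They were Gabarapl1 (-0.92 ± 0.21, adjusted p = 0.00989), Wipi1 (-0.88 ± 0.22, adjusted p = 0.0223), Atg14 (-0.84 ± 0.22, adjusted p = 0.0243) and Map1lc3b (-0.62 ± 0.16, adjusted p = 0.0224), that is, 2 ATG8 genes, a membrane reader and the autophagosome-specific Beclin 1 partner. The median log2 fold change was -0.18 over the 34 genes and -0.01 over all tested genes. Atg14 had 8.94, 9.32, 12.2 and 13.6 CPM in calorie-restricted livers and 20.5, 13.7, 19.8 and 25.4 CPM in saline livers. The groups did not overlap, although calorie-restricted liver 79 and saline liver 50 lay close together. Bnip3 had 232, 293, 264 and 224 CPM in calorie-restricted livers, all below the 419 to 473 CPM of saline livers, and its log2 fold change of -0.83 ± 0.31 had an adjusted p of 0.113. Gabarapl1 alone was called under every alternative. Only 1 gene was called without calorie-restricted 7 or 8 or saline 35 or 73 (3.82% to 6.46% of all tested genes). Without saline 50 or 78, 2 genes were called (4.24% and 5.4% of all tested genes). The adjusted p of the lost calls was 0.0631 to 0.0953 for Atg14, 0.0515 to 0.0849 for Wipi1 and 0.0517 to 0.0872 for Map1lc3b. Between these groups the shortest 20% of all tested genes had a median log2 fold change of -0.14 and the longest 20% had one of 0.10. With the length trend removed, 5 genes were called (10.3% of all tested genes were). Kupffer cell markers also differed: their sum was 84.7 to 306 CPM in calorie-restricted livers and 238 to 393 CPM in saline livers. Of the 9 markers 1 was called lower, and none was at 0 in all libraries of a group. Their part in the result was not tested.

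**Figure D4:**
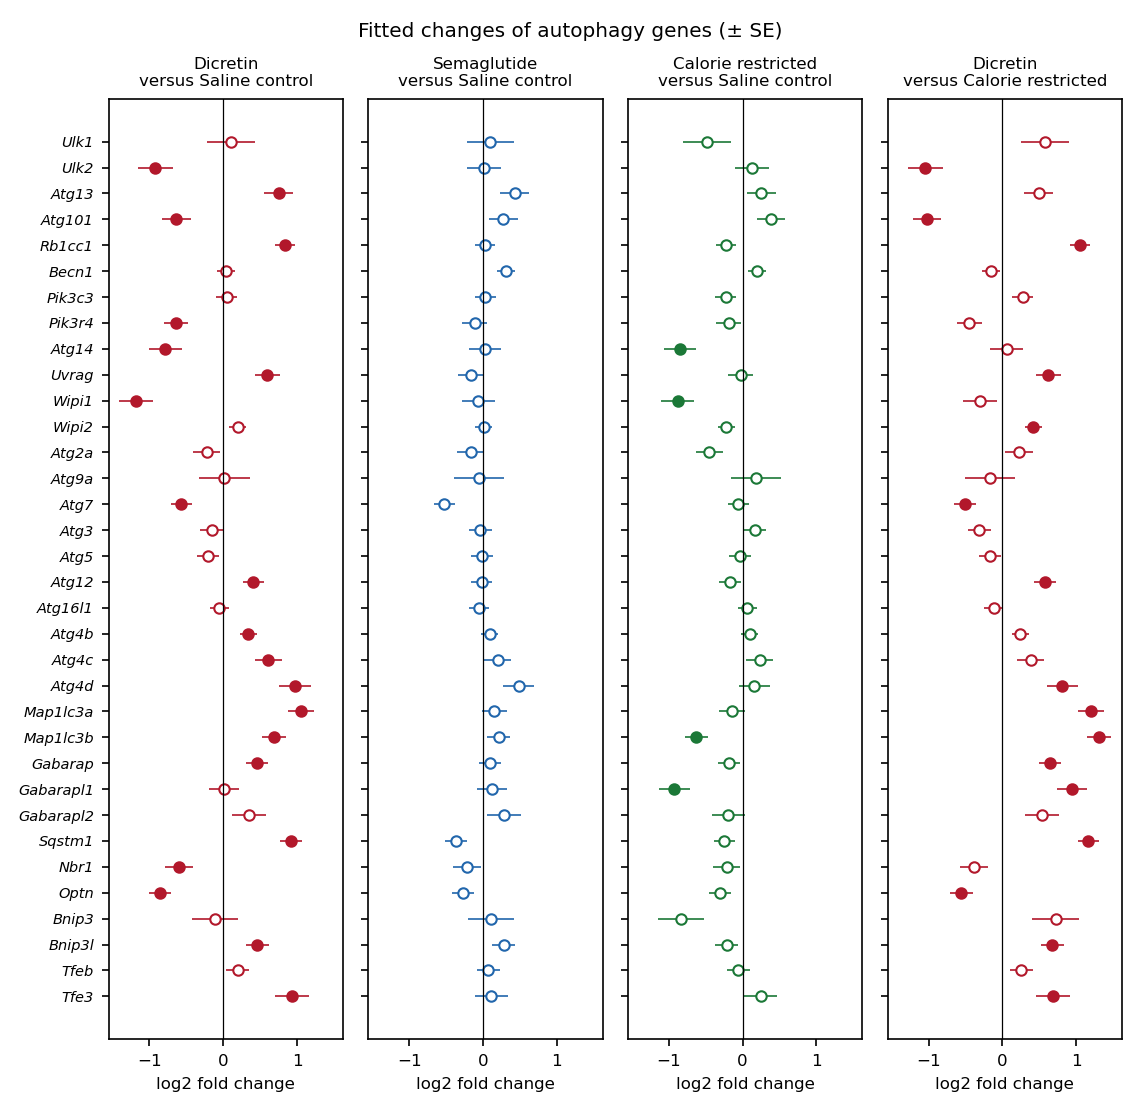
Points give the fitted log2 fold change of each of the 34 genes (x axis, with SE bars) in 4 comparisons, named above the panels with the group on top of the fold first. Filled points are called at an adjusted p under 0.05: 21 in Dicretin versus saline, 0 in Semaglutide versus saline, 4 in calorie restriction versus saline and 16 in Dicretin versus calorie restriction.

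Dicretin was compared with calorie restriction because the design sets drug treatment against an equivalent weight loss by diet. These livers differed in 16 of the 34 genes. Of these, 12 were higher in Dicretin livers (35.3%, against 15.1% of all tested genes) and 4 were lower (11.8%, against 16.2%), with a median log2 fold change of 0.33 over the 34 genes and -0.00 over all tested genes. In the ATG8 family 4 of 5 were higher: Map1lc3b (1.32 ± 0.16, adjusted p = 7.27e-06), Map1lc3a (1.20 ± 0.17, adjusted p = 4.69e-05), Gabarapl1 (0.94 ± 0.21, adjusted p = 0.002) and Gabarap (0.65 ± 0.15, adjusted p = 0.00306). Gabarapl2 was not called (0.54 ± 0.23, adjusted p = 0.0799). Sqstm1 differed by 1.17 ± 0.15 (adjusted p = 8.22e-06) and Rb1cc1 by 1.05 ± 0.14 (adjusted p = 1.26e-05). Also higher were Atg4d, Bnip3l, Tfe3, Uvrag, Atg12 and Wipi2, with log2 fold changes from 0.42 (Wipi2) to 0.81 (Atg4d). The 4 lower genes were Ulk2 (-1.04 ± 0.24, adjusted p = 0.00263), Atg101 (-1.02 ± 0.19, adjusted p = 0.000647), Optn (-0.55 ± 0.15, adjusted p = 0.0105) and Atg7 (-0.51 ± 0.15, adjusted p = 0.0132). Atg14 and Wipi1, both below saline in each group, had log2 fold changes of 0.06 and -0.31 between Dicretin and calorie-restricted livers and were not called. Pik3r4 lay just above the threshold and was not called (-0.45 ± 0.17, adjusted p = 0.05). Tfe3 was not called without Dicretin 14 or 23 or calorie-restricted 7, 8 or 52 (adjusted p 0.0577 to 0.106), with only the 2 groups in the fit (adjusted p = 0.055) or without Semaglutide 11 and Dicretin 14 (0.44, adjusted p = 0.0634). Kupffer cell markers moved with this comparison, with 6 of 9 higher in Dicretin livers. They summed to 236 to 669 CPM in Dicretin livers and 84.7 to 306 CPM in calorie-restricted livers. None of the 9 was at 0 in all libraries of a group. Of the recruited macrophage markers, 3 of 8 were higher. Hepatocyte markers summed to 75600 to 94500 CPM in Dicretin livers and 122000 to 141000 CPM in calorie-restricted livers, with 2 of 6 higher and 1 lower. Their part in the result was not tested. The median log2 fold change was 0.18 over the shortest 20% of all tested genes and -0.14 over the longest. With the length trend removed, Atg7 was not called (-0.37, adjusted p = 0.0696), and Atg13, Atg4b and Gabarapl2 were.

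Semaglutide and calorie-restricted livers differed in 4 of the 34 genes, all higher in Semaglutide livers (11.8%, against 3.05% of all tested genes), and none was lower (3.07% of all tested genes were). They were Gabarapl1 (1.05 ± 0.21, adjusted p = 0.00485), Atg14 (0.87 ± 0.22, adjusted p = 0.024), Map1lc3b (0.84 ± 0.16, adjusted p = 0.00409) and Wipi1 (0.82 ± 0.22, adjusted p = 0.0363). These are the 4 genes that were lower in calorie-restricted than in saline livers, and both comparisons use the same calorie-restricted libraries. Gabarapl1 averaged 417 ± 63.4 CPM in Semaglutide livers, 201 ± 74.1 CPM in calorie-restricted livers and 381 ± 31.7 CPM in saline livers. Without Dicretin 14, 7 genes were called, with Atg7, Bnip3 and Bnip3l added, and without calorie-restricted 7 or 8, 2 genes. Wipi1 lost its call when Semaglutide 15, 31 or 51, calorie-restricted 7, 8 or 52, or saline 35 or 50 was left out (adjusted p 0.0506 to 0.117) and Atg14 without Semaglutide 51 or calorie-restricted 7 or 8 (adjusted p 0.0703 to 0.0872) or with only the 2 groups in the fit (adjusted p = 0.0533). None of 9 Kupffer cell markers was called, with sums of 115 to 428 CPM in Semaglutide livers and 84.7 to 306 CPM in calorie-restricted livers. The shortest 20% of all tested genes had a median log2 fold change of 0.27 here and the longest one of -0.17. With the length trend removed, 5 genes were called. The share of all tested genes is not set beside these counts under changed fits. They are therefore not read as changes particular to the 34 genes.

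Dicretin and Semaglutide share the glucagon-like peptide-1 receptor as a target and differ in that Dicretin also activates the glucagon receptor. Their livers differed in 13 of the 34 genes, with 7 higher in Dicretin livers (20.6%, against 14.8% of all tested genes) and 6 lower (17.6%, against 17.1%). Sqstm1 gave the clearest difference, 711 ± 101 CPM in Dicretin livers and 292 ± 32.5 CPM in Semaglutide livers, a log2 fold change of 1.29 ± 0.15 (adjusted p = 2.71e-06) with a 95% interval from 0.98 to 1.59. Map1lc3a (0.90 ± 0.17, adjusted p = 0.000605), Rb1cc1 (0.80 ± 0.14, adjusted p = 0.000183), Tfe3 (0.81 ± 0.23, adjusted p = 0.0103) and Uvrag (0.76 ± 0.17, adjusted p = 0.00229) were also higher, as were Map1lc3b and Atg12, at 0.48 and 0.43. The lower genes were Wipi1 (-1.12 ± 0.23, adjusted p = 0.00097), Ulk2 (-0.93 ± 0.24, adjusted p = 0.00535), Atg101 (-0.91 ± 0.19, adjusted p = 0.00141), Atg14 (-0.81 ± 0.22, adjusted p = 0.00878), Optn (-0.59 ± 0.15, adjusted p = 0.00657) and Pik3r4 (-0.53 ± 0.17, adjusted p = 0.0226). No difference was called for Gabarapl1, with a 95% interval of the log2 fold change from -0.54 to 0.32, or for Atg7, with one from -0.35 to 0.26. Some calls did not hold with 1 library left out. Pik3r4 was not called without Dicretin 23 or 65 or Semaglutide 15, 31 or 51, with log2 fold changes of -0.49 to -0.41 (adjusted p 0.0564 to 0.0775). Atg12 was not called without Dicretin 14, 23 or 65 or Semaglutide 15 or 51, at 0.37 to 0.44 (adjusted p 0.0559 to 0.0826). Map1lc3b was not called without Dicretin 65 or Semaglutide 15, 31 or 51, at 0.35 to 0.47 (adjusted p 0.0628 to 0.103), or with the length trend removed (0.49, adjusted p = 0.0639), and Atg14 not without Semaglutide 51 (adjusted p = 0.0505). Tfe3 was not called without Semaglutide 11 and Dicretin 14 together (0.45, adjusted p = 0.089). With only the 2 groups in the fit Pik3r4, Atg12, Map1lc3b and Tfe3 were not called (adjusted p 0.0581 to 0.12), and with no count filter Pik3r4 (adjusted p = 0.0636) and Atg12 (adjusted p = 0.0612) were not. Hepatocyte markers summed to 75600 to 94500 CPM in Dicretin livers and 114000 to 143000 CPM in Semaglutide livers, with 2 of 6 higher and 3 lower. Of 8 recruited macrophage markers 2 were higher, with sums of 113 to 185 CPM in Dicretin livers and 72.5 to 225 CPM in Semaglutide livers, and of 8 stellate and fibroblast markers 2 were lower, with sums of 217 to 259 CPM in Dicretin livers and 271 to 341 CPM in Semaglutide livers. Kupffer cell markers summed to 236 to 669 CPM in Dicretin livers and 115 to 428 CPM in Semaglutide livers, with none of 9 called and 5 at an unadjusted p under 0.05. No marker of these lists was at 0 in all libraries of a group, and their part in the result was not tested.

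Against each of the other 3 groups, Dicretin livers were higher in the same 7 genes, Rb1cc1, Uvrag, Atg12, Map1lc3a, Map1lc3b, Sqstm1 and Tfe3, and lower in the same 3, Ulk2, Atg101 and Optn. The 7 were 20.6% of the 34 genes, against 8.04% of all tested genes called higher in all 3 comparisons, and the 3 were 8.82%, against 9.74% called lower. These 3 comparisons share the Dicretin libraries. Atg12, Map1lc3b and Tfe3 lost a call in at least 1 of them under alternatives named above. Over all 6 comparisons 23 of the 34 genes (67.6%, against 52.1% of all tested genes) were called at least once and 11 never. Those 11 were Ulk1, Becn1, Pik3c3, Atg2a, Atg9a, Atg3, Atg5, Atg16l1, Gabarapl2, Bnip3 and Tfeb. They include the kinase gene Ulk1, the lipid kinase gene Pik3c3 with its partner Becn1, and the partners Atg5 and Atg16l1.

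Further genes of the pathway were counted from lists written for this description. Their counts stand against the 17.5% of all tested genes higher and 19.2% lower in Dicretin than in saline livers. Of 14 tested further core genes, 1 was higher (7.14%) and 3 lower (21.4%) in Dicretin than in saline livers. Vmp1, an endoplasmic reticulum protein needed for autophagosome formation, had 152 ± 21.7 CPM in Dicretin livers and 83.0 ± 6.91 CPM in saline livers (0.87 ± 0.17, adjusted p = 0.000513). Wdr45b, a WIPI relative, had 27.1 ± 3.17 CPM in Dicretin livers and 49.8 ± 14.4 CPM in saline livers (-0.88 ± 0.19, adjusted p = 0.00147). Atg10, the E2-like enzyme for ATG12, differed by -0.79 ± 0.22 (adjusted p = 0.00899), and Rubcn, an inhibitor of autophagosome maturation, by -0.58 ± 0.19 (adjusted p = 0.0221). Rubcn lost its call without Dicretin 23 or 64 or saline 35 or 50, with adjusted p up to 0.0701.

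Among 18 tested further receptors and mitophagy genes, 6 were higher (33.3%, against 17.5% of all tested genes) and 1 lower (5.56%, against 19.2%) in Dicretin livers. Retreg1 (FAM134B), the receptor for autophagy of the endoplasmic reticulum, had 208, 225, 273 and 431 CPM in Dicretin livers, 176, 110.3, 88.7 and 135 CPM in Semaglutide livers and 35.5, 38.9, 52.9 and 54.9 CPM in calorie-restricted livers, against 59.01, 44.6, 56.2 and 81.6 CPM in saline livers. Dicretin livers were highest, Semaglutide livers lay between them and the rest without overlap, and calorie-restricted and saline livers overlapped. Its log2 fold change was 2.24 ± 0.26 (adjusted p = 3.06e-06) for Dicretin versus saline and 1.08 ± 0.25 (adjusted p = 0.0188) for Semaglutide versus saline. The second call was lost without Semaglutide 11 or saline 35, 50 or 73, with adjusted p up to 0.0832. Ncoa4, the receptor that delivers ferritin to lysosomes, had 428, 324, 300.3 and 356 CPM in Dicretin livers, 141, 153, 144 and 155 CPM in Semaglutide livers and 166, 169, 199 and 168 CPM in calorie-restricted livers, against 173, 166, 152 and 158 CPM in saline livers. All Dicretin livers lay above all others, and the difference from saline was 1.12 ± 0.13 (adjusted p = 2.83e-06). Rtn3, another receptor of the endoplasmic reticulum, differed by 0.57 ± 0.11 (adjusted p = 0.000575). Calcoco1, also a receptor of the endoplasmic reticulum, was lower in Dicretin than in saline livers (-1.17 ± 0.20, adjusted p = 0.000159) and lower in calorie-restricted than in saline livers (-1.09 ± 0.20, adjusted p = 0.00225), 2 comparisons that share the saline libraries.

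The list for fusion with the lysosome held 16 genes. In Dicretin livers 5 were higher (31.2%, against 17.5% of all tested genes) and 3 lower (18.8%, against 19.2%). The SNARE gene Stx17 (-0.56 ± 0.15, adjusted p = 0.00599) and the HOPS subunit gene Vps41 (-0.63 ± 0.13, adjusted p = 0.00109) fell, while the HOPS subunit gene Vps33a (0.60 ± 0.16, adjusted p = 0.00605) and Rab7 (0.41 ± 0.11, adjusted p = 0.00795), a small GTPase of late endosomes, rose. Among 25 genes of the nutrient-sensing kinases and their regulators upstream of ULK1, 7 were higher (28%) and 5 lower (20%). Prkag2, a regulatory subunit of AMPK, differed by -1.02 ± 0.16 (adjusted p = 6.16e-05) and the sestrin gene Sesn1 by -1.08 ± 0.18 (adjusted p = 0.000147). The arginine sensor relative Castor2 differed by -2.01 ± 0.37 (adjusted p = 0.000328). Its levels were low, at 0.69 to 1.82 CPM in Dicretin livers and 3.54 to 6.22 CPM in saline livers. Akt1s1, an inhibitory subunit of mTORC1, differed by 0.64 ± 0.13 (adjusted p = 0.000948). Ddit4, an inhibitor of mTORC1 signalling, averaged 16.1 ± 3.92 CPM in Dicretin livers and 2.37 ± 1.54 CPM in Semaglutide livers, a log2 fold change of 2.78 ± 0.35 (adjusted p = 8.95e-06).

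Of 18 genes that control TFEB and TFE3 at the lysosome, 6 were higher and 1 lower in Dicretin livers. These were 33.3%, against 17.5% of all tested genes, and 5.56%, against 19.2%. The median log2 fold change of the 18 genes was 0.34. Lamtor3, a Ragulator subunit that anchors mTORC1 signalling at the lysosome, had 37.98, 35.8, 36.9 and 62.6 CPM in Dicretin livers, 22.9, 16.4, 17.04 and 14.3 CPM in Semaglutide livers and 9.99, 12.2, 11.6 and 10.3 CPM in calorie-restricted livers, against 15.1, 14.9, 14.7 and 14.1 CPM in saline livers. Every Dicretin liver lay above every other liver, and the difference from saline was 1.56 ± 0.19 (adjusted p = 4e-06). Fnip2, a folliculin partner, had 15.8, 11.4, 8.40 and 6.58 CPM in Dicretin livers, 23.9, 44.9, 25.2 and 45.8 CPM in Semaglutide livers and 22.02, 24.9, 22.7 and 24.1 CPM in calorie-restricted livers, against 42.3, 44.9, 38.6 and 31.9 CPM in saline livers. Its Dicretin livers lay below all others, with a difference from saline of -1.89 ± 0.25 (adjusted p = 1.49e-05). The related Fnip1 was higher in Dicretin than in calorie-restricted livers (1.27 ± 0.16, adjusted p = 7.2e-06). Rragc, a Rag GTPase, differed from saline by 0.72 ± 0.13 (adjusted p = 0.000229) and the calcineurin subunit gene Ppp3r1 by 0.73 ± 0.14 (adjusted p = 0.000703).

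A list of 16 genes held transcription factors of autophagy genes, with some of their coregulators, inhibitors and targets. In Dicretin livers 5 were higher (31.2%, against 17.5% of all tested genes) and 4 lower (25%, against 19.2%). Trp53inp1, a stress protein that binds ATG8 proteins, had 201, 122, 101 and 169.6 CPM in Dicretin livers, 35.5, 39.3, 22.8 and 25.5 CPM in Semaglutide livers and 37.96, 42.8, 60.5 and 57.2 CPM in calorie-restricted livers, against 45.6, 39.02, 46.1 and 40.7 CPM in saline livers. Dicretin livers stood above all others, and the log2 fold change against saline was 1.79 ± 0.22 (adjusted p = 5.79e-06). The stress factor Atf4 differed by 1.41 ± 0.15 (adjusted p = 1.35e-06), and the coactivator Ppargc1a by 2.83 ± 0.16 (adjusted p = 1.08e-09). Depp1, a FOXO target, had 0.375, 1.58, 1.22 and 1.13 CPM in Dicretin livers, 123, 71.7, 51.9 and 69.99 CPM in Semaglutide livers and 21.8, 23.1, 16.6 and 144 CPM in calorie-restricted livers, against 80.7, 39.95, 74.9 and 75.5 CPM in saline livers. It was nearly absent from Dicretin livers, and calorie-restricted liver 79 stood apart from its group. The log2 fold change against saline was -6.00 ± 0.77 (adjusted p = 2.42e-05).

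**Figure D5:**
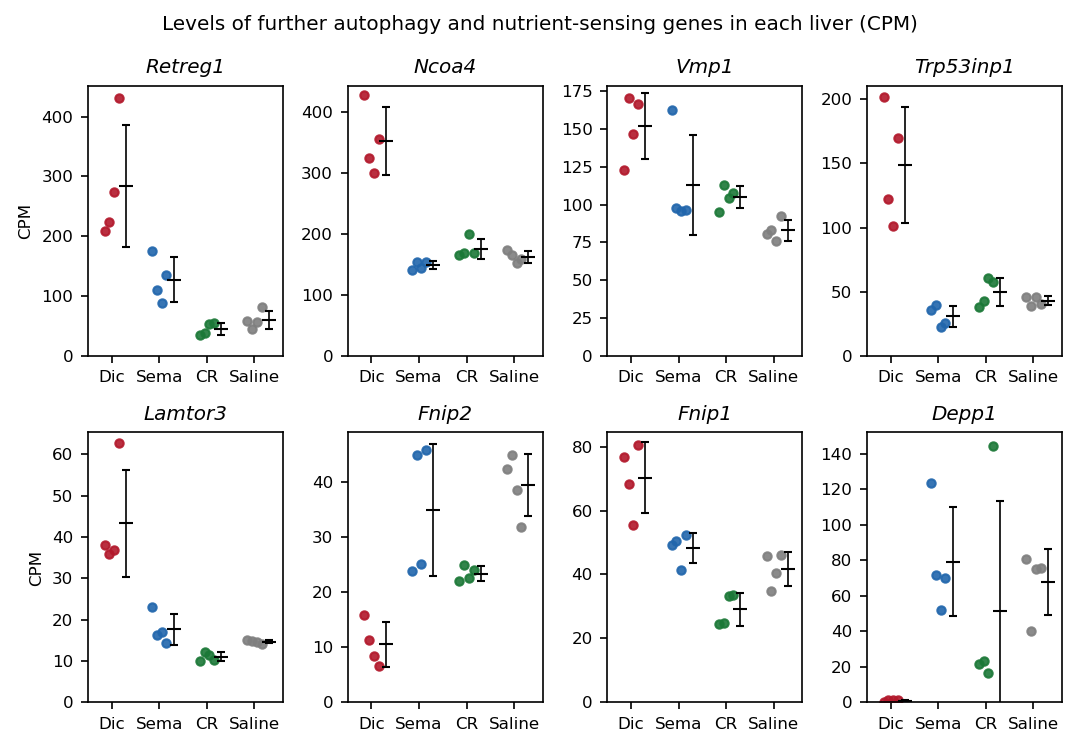
Each panel shows 1 further pathway gene with CPM on the y axis from 0, 1 point per liver in the Dicretin (Dic), Semaglutide (Sema), calorie-restricted (CR) and saline groups, and mean ± SD as black bars, cut at 0 where the SD exceeds the mean. Retreg1, Ncoa4, Trp53inp1 and Lamtor3 are highest in the Dicretin livers, and Depp1 lies between 0.375 and 1.58 CPM there, against 39.9 to 80.7 CPM in saline livers.

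In the comparisons without Dicretin, 107 further genes were tested. Between calorie-restricted and saline livers 3 of them were higher (2.8%, against 3.42% of all tested genes) and 6 lower (5.61%, against 4.11%). Atf4 (0.67 ± 0.15, adjusted p = 0.0106), the cyclic AMP response factor gene Creb1 (0.53 ± 0.14, adjusted p = 0.0302) and Tmem41b (0.83 ± 0.17, adjusted p = 0.00519), a scramblase of the endoplasmic reticulum, rose. Calcoco1, the liver transcription factor gene Cebpb (-0.96 ± 0.23, adjusted p = 0.0165), Wdr45b (-0.76 ± 0.19, adjusted p = 0.019), the endoplasmic reticulum receptor gene Tex264 (-0.55 ± 0.14, adjusted p = 0.0242), the mTOR kinase gene Mtor (-0.67 ± 0.19, adjusted p = 0.0421) and Fnip1 (-0.52 ± 0.15, adjusted p = 0.0477) fell. Atf4, Tmem41b and Calcoco1 were called under every alternative, and each of the other 6 lost its call with at least 1 single library left out (adjusted p up to 0.17 over all alternatives). Between Semaglutide and calorie-restricted livers 7 were higher (6.54%, against 3.05% of all tested genes) and 2 lower (1.87%, against 3.07%). The higher genes were the folliculin gene Flcn (0.90 ± 0.19, adjusted p = 0.00829), Fnip1 (0.73 ± 0.15, adjusted p = 0.00857), Wdr45 (0.88 ± 0.19, adjusted p = 0.011), Wdr45b (0.99 ± 0.19, adjusted p = 0.00402), Retreg1 (1.48 ± 0.25, adjusted p = 0.00188), Calcoco1 (0.75 ± 0.20, adjusted p = 0.0278) and Lamtor3 (0.68 ± 0.19, adjusted p = 0.0355). The lower genes were Ddit4 (-1.43 ± 0.35, adjusted p = 0.0189) and Keap1, an inhibitor of NRF2 (-0.39 ± 0.11, adjusted p = 0.0414). Calcoco1, Lamtor3, Ddit4 and Keap1 lost their calls with at least 1 single library left out (adjusted p up to 0.161 over all alternatives). Between Semaglutide and saline livers Retreg1 alone was called, as higher (0.935%, against 1.56% of all tested genes), and none was lower (against 2.62%).

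RefSeq promoter windows were found for 27 of the 34 genes, 32 windows in all. Letters known to be bound by factors of these pathways were searched on both strands. TCACGTGA, the palindrome bound by TFEB and TFE3, was present in 1 window, that of Atg3, or 3.12% of the windows against 0.974% of 32851 windows of all genes. CACGTG, the E-box contained in it, was present in 5 windows (15.6%, against 7.15%), of Atg14, Atg3, Atg5, Atg7 and Bnip3. The cyclic AMP response element TGACGTCA was present in the window of Atg5 (3.12%, against 1.79%), and its part TGACG in 7 windows (21.9%, against 20.8%), that of Map1lc3b among them. The NRF2 element TGACNNNGC was present in 3 windows (9.38%, against 12.4%), of Atg13, Map1lc3b and Ulk2. GTAAACA, bound by FOXO factors, and TGATGCAA, bound by ATF4, had no match in these windows, against 3.65% and 0.895% of all windows. Of the 7 genes that were higher in Dicretin livers against each other group, Map1lc3b had matches, the windows of Sqstm1, Uvrag and Tfe3 had none, and Rb1cc1, Atg12 and Map1lc3a were not searched. A match describes letters in a window and not a site in use.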

How the data were processed

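Poly(A)-selected, strand-preserving RNA-seq libraries were made from Trizol-extracted RNA of flash-frozen livers, per the labels' protocols. The submitters' processing notes name the build mm10 and, among the tools, featureCounts and TopHat2 (2.1.1). Annotation release, counting options and strand setting are not given in the sources used here. The deposited values were raw counts per Ensembl gene, with no normalization by the authors as far as the values show. All 16 columns were matched to samples by number, and no 2 libraries were identical.

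In R 4.3.3 with edgeR 4.0.16, genes were filtered with filterByExpr (12910 kept), scaled with TMM factors and fitted in 1 model with a mean per group (glmQLFit, robust; common biological coefficient of variation 0.24). The 6 contrasts were tested with glmQLFTest and Benjamini-Hochberg adjustment over all tested genes at 0.05, without adjustment across comparisons. The SE was the absolute log2 fold change divided by the square root of F. Total counts of 12.144 to 18.755 M per library set the counting precision. Exon lengths, positions and overlaps came from GENCODE M21 (GRCm38), promoter sequences from RefSeq (GRCm38.p6). The procedure was run on counts simulated from the fit's own means and spread. That simulation had no length trend and no outlying libraries, so it does not cover these features.

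Alternatives were DESeq2 1.42.0 size factors and its Wald test, upper quartile factors, limma-voom (limma 3.58.1), omission of the 20 most abundant genes, no count filter, a filter of 1 CPM in 4 or more libraries, fits to the 2 compared groups alone, omission of each library, Semaglutide 11 and Dicretin 14 left out, and, added after seeing the data, the gene length trend removed (loess). The members and gene lists were chosen with earlier results of these data known. Among members called at least once, the 14 with the smallest p-value are given with every library value, and up to 4 genes with the smallest p per further list and comparison could be named. Protein sequences were not used here.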

Additional observations from a re-analysis of the deposited data

Results flagged for a closer look

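In 15 of 308 sets of 4 libraries (34 autophagy genes and 43 other named genes, each in 4 groups), 1 library lay far from the other 3 by Dixon's criterion, about as many as chance gives at 1 in 20. Among the 34 genes there were 3. Gabarapl2 was at 129.4 CPM in Semaglutide 11, against 54.5 to 64.6 CPM in the other Semaglutide livers. Bnip3l was at 136 CPM in Semaglutide 11, against 94.99 to 100.7 CPM. Map1lc3b was at 145.7 CPM in saline 78, against 122 to 124 CPM in the other saline livers. Semaglutide 11 also stood apart in Vmp1 (162.8 CPM, against 96.1 to 97.6 CPM) and Akt1s1 (49.2 CPM, against 42.8 to 43.6 CPM).

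In Dicretin livers, Lamtor3 was at 62.61 CPM in library 65, against 35.8 to 38.0 CPM, and Prkag2 at 14.19 CPM in library 14, against 17.6 to 18.1 CPM. In calorie-restricted livers, Depp1 was at 144.1 CPM in library 79, against 16.6 to 23.1 CPM, Ncoa4 at 199.3 CPM in library 52, against 166 to 169 CPM, and Rubcn at 11.85 CPM in library 7, against 13.9 to 14.0 CPM. In saline livers, Depp1 was at 39.95 CPM in library 50, against 74.9 to 80.7 CPM. Saline 73 had Ddit4 at 8.165 CPM, against 4.54 to 4.80 CPM, and Sesn1 at 8.097 CPM, against 12.2 to 12.5 CPM. Saline 78 had Stbd1 at 86.35 CPM, against 64.7 to 67.5 CPM, and Ykt6 at 58.14 CPM, against 47.4 to 48.7 CPM.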

How the results depend on the processing

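No paired analysis was possible because the groups share no replicate numbers. Of the 58 calls over the 6 comparisons, 41 were kept under all 26 alternatives, 17 were lost under at least 1, and 0 changed direction. Under every alternative the median log2 fold change of all genes lay within 0.1 of 0. It still moved between Dicretin and saline, from -0.0054 to 0.0971 with the gene length trend removed. There 42.5% of all tested genes were called, against 36.7% in the main fit. The count between Semaglutide and saline, 0, became 1 with limma-voom, only the 2 groups, the DESeq2 Wald test or upper quartile factors (Atg7 each time). It was 1 without Semaglutide 11 and Dicretin 14 (Atg13) and 1 with the gene length trend removed (Becn1). With single libraries left out it was 0 to 1, with 1.96% to 5.94% of all tested genes called. The count between calorie restriction and saline, 4, became 8 with only the 2 groups. There 20.7% of all tested genes were called, against 7.53% in the fit of all groups. With single libraries left out the count was 1 to 5, with 3.82% to 10.4% of all tested genes called. The count between Semaglutide and calorie restriction, 4, became 7 with the DESeq2 Wald test (10% of all tested genes, against 6.12%) and was 2 to 7 with single libraries left out. The cause was not tested. With single libraries left out, 17 to 21 genes were called between Dicretin and saline, with 30% to 40.7% of all tested genes called. Between Dicretin and calorie restriction 15 to 20 were called, with 26.4% of all tested genes without Dicretin 65 and 35% without Semaglutide 11. Between Dicretin and Semaglutide 10 to 16 were called, and the main fit called 14.8% of all tested genes higher and 17.1% lower. For this comparison, and for Semaglutide and calorie restriction, shares with single libraries left out are not given here. These ranges are therefore not read as results about the members. For other pathway genes, only the calls with the smallest p were followed, up to 4 per list and comparison. Of these 89 calls, 69 were kept under every alternative. With 4 libraries per group, changes smaller than those called may not be detectable.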
